A study of Mus musculus with 17 samples.

Results

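Lungs taken 6 weeks after a focal dose of 65 Gy were compared directly with lungs taken 2 weeks after the same dose, across all genes. The libraries were chosen by their titles and are 5 of the 17 in the series, 2 at 6 weeks (3138 and 3140) and 3 at 2 weeks (3129, 3130 and 3131). All of them came from male wild-type C57BL/6 mice that were 6 weeks old before a week of acclimatisation and whose left lung then received the whole dose in a single image-guided fraction. The 6 control libraries, 3 per time, came from non-irradiated mice of the same strain, sex, genotype and age, and the 6 libraries of 75 Gy, again 3 per time, received that dose in the same way. RNA of irradiated lungs was extracted from the lesion, so an irradiated library stands for the beamed tissue and not for the whole lung. The labels do not say that each library came from a separate mouse. The p-values therefore set a change against the spread between libraries of a group, estimated over all 17, which may be partly technical. Time after irradiation and age move together, and within the 65 Gy libraries they cannot be told apart. The controls carry the same labelled times without the dose, and for this reason the time change of the controls is set beside that of the 65 Gy lungs and the difference between them is tested.

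Radiation breaks DNA, and the break stabilises p53, which drives genes that stop the cell cycle, such as Cdkn1a, and genes that prepare cell death. In the beamed lung, an early pneumonitis with inflammatory cells, interferon signalling and dividing cells is followed over weeks by a fibrotic stage in which macrophages, fibroblasts and lymphoid cells change. Plasma cells, the end stage of B cells, make almost nothing but immunoglobulin, whose mRNA joins a constant region to rearranged V, D and J segments, so the segments read in a tissue reflect the plasma cell clones in it. Alveolar macrophages live in the airspaces, clear surfactant and debris, and carry their own set of genes, among them the eosinophil-associated ribonucleases of the Ear family and the chitinase-like protein Chil3.

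Between 55544421 and 62685675 reads were counted on genes per 2-week library and 58298851 and 59653532 in the 6-week libraries, and levels are given as CPM, counts scaled to library size with TMM factors, of which 1 stood for 56.2 to 63.1 counts. The biological coefficient of variation within a group was 0.143 at 2 weeks and 0.166 at 6 weeks, and the Pearson r of log2 CPM across genes was 0.983 to 0.986 within and 0.977 to 0.98 between the groups. Defining genes of lung cells were present in all 5 libraries, for instance surfactant protein C (Sftpc) at 10300 to 17200 CPM and Ager of alveolar type 1 cells at 1570 to 1750 CPM. In single respects some libraries stood apart. Library 3129 had the highest fat genes, with Adipoq at 10.52 CPM and the brown fat gene Ucp1 at 18.03 CPM, against 0.523 to 3.33 CPM and at most 0.19 CPM in the other 65 Gy libraries. It also had the largest sum over mitotic genes. Library 3138 had the largest sum over immunoglobulin genes, and library 3140 the largest over immediate early genes. The values below are therefore given for each library.

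Of 22052 genes tested, 75 (0.34%) passed an adjusted p of 0.05 in edgeR's quasi-likelihood test with a log2 fold change of at least 1, and such genes are called here. At 6 weeks, 56 (0.254%) were higher and 19 (0.0862%) lower than at 2 weeks. An unadjusted p under 0.05 was reached by 1312 genes upward (5.95%) and 1490 downward (6.76%), and the median log2 fold change over all genes was 0.000714. Counts of list members at this unadjusted limit are given below and stand beside these 2 shares. Immunoglobulin genes made up 30 of the 56 that were higher, 27 of them V, D or J segments and 3 constant regions. The other 45 called genes, 26 higher and 19 lower, belonged to macrophages, chemokines, mitosis, the p53 response, interferon and the circadian clock among other groups. In all 75 the 6-week libraries lay entirely above or entirely below the 2-week libraries, as they did for 38.6% of all genes tested. The calls changed with the libraries that entered the fit. With 1 library of 65 Gy left out the count was 29 without 3129, 22 without 3130, 19 without 3131, 15 without 3138 and 57 without 3140, and of the 75 genes 24, 22, 17, 13 and 38 were still called. All 75 kept their direction in these 5 fits. The genes called in every one of them were Arntl, Cd207, Ear2, Gdf15, Ighj1, Igkv8-24, Iglv1 and Pla2g2d, whereas 24 were called in none of them.

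**Figure D1:**
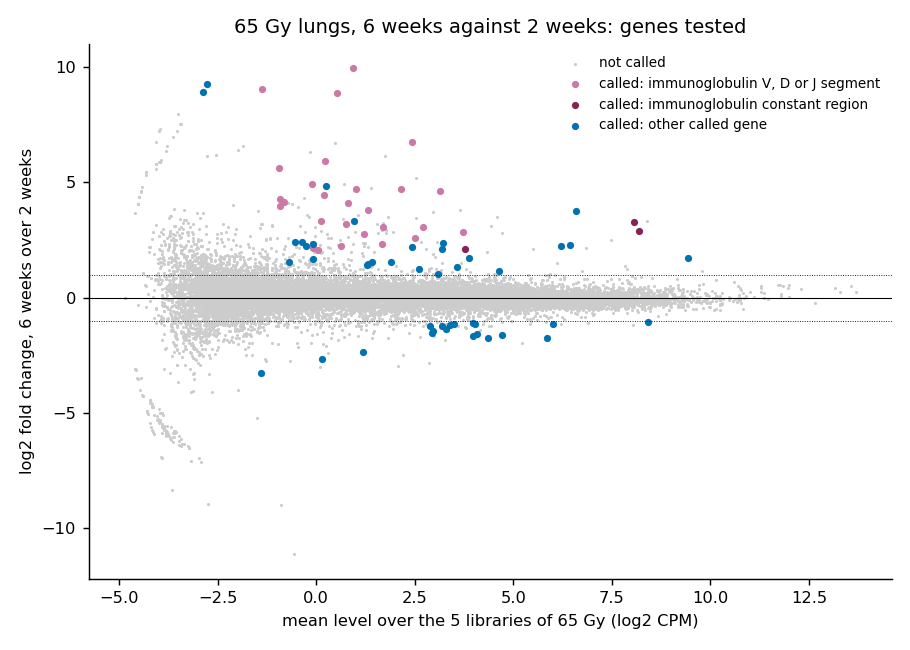
Log2 fold change at 6 weeks over 2 weeks (vertical) against the mean level of the gene in the 5 libraries of 65 Gy (horizontal, log2 CPM) for the 22052 genes tested; dotted lines mark a log2 fold change of 1 in either direction. The 27 called V, D and J segments and the 3 constant regions lie on the upper side only, and the 2 called genes at the top left, Glycam1 and Gm6522, had no counts at 2 weeks, so that their fitted change has no scale.

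Genes that p53 induces were lower at 6 weeks. Of the 27 in the list, 3 were called and all 3 fell, while at an unadjusted p under 0.05 14 were lower and 3 higher (Btg2 was the highest, at a log2 fold change of 0.96). The median over the list was -0.31, against -0.03 between the controls of the same times, where 2 members were called lower. Cdkn1a (chr17:29090979-29100722 on GRCm38.p6), which encodes the cyclin-dependent kinase inhibitor p21, stood at 416, 471 and 499 CPM in the 2-week libraries and at 191 and 259 CPM at 6 weeks. Both 6-week libraries lay far below the lowest 2-week library and still above the controls, which had means of 99.9 CPM at 2 weeks and 48.7 CPM at 6 weeks. The fall was 1.04 on the log2 scale (SE 0.17, adjusted p = 0.0175 in edgeR's quasi-likelihood test). The controls fell by 1.04 as well (SE 0.15, adjusted p = 0.00381), and the difference between the time changes was -0.00 (SE 0.23, unadjusted p = 0.996).

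Gdf15 (chr8:70629393-70632470), a stress cytokine that damaged cells secrete, was the p53 target with the smallest spread. It stood at 21.7, 19.9 and 22.8 CPM at 2 weeks and at 9.58 and 10.51 CPM at 6 weeks, a fall of 1.09 (log2, SE 0.12, adjusted p = 0.0011) that was called whichever of the 5 libraries was left out. The 2 groups did not overlap, and the controls had means of 1.52 and 1.14 CPM, so Gdf15 at 6 weeks was still above every control. Tnfrsf10b, the death receptor for TRAIL, fell by 1.12 (SE 0.21, adjusted p = 0.0267), from 19.8, 24.6 and 22.7 CPM to 8.81 and 11.7 CPM. The control means were 13.93 and 8.04 CPM, a difference of -0.79 on the log2 scale (SE 0.18, adjusted p = 0.0399), and the difference between the time changes was -0.33 (unadjusted p = 0.237). Without library 3130, 3131, 3138 or 3140 it was not called. Cdkn1a was not called without library 3130, 3131 or 3138. The list then held 1 call, against 4 without 3129 and 2 without 3140, and without 3138 the 14 members lower at an unadjusted p under 0.05 became 7.

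Genes of mitosis were lower at 6 weeks as a group, although few passed the adjusted threshold. In the list of 63 genes of the spindle, kinetochore and cytokinesis, 61 had a negative log2 fold change and 47 an unadjusted p under 0.05, all of these downward, against 6.76% of all genes. Cenpf, Ect2 and Aspm were called. The median was -0.81, against -0.07 in the controls and -0.86 in the 75 Gy lungs. Summed over the list, the 2-week libraries had 1080, 732 and 762 CPM and the 6-week libraries 576 and 512 CPM, and the 6 controls 363 to 433 CPM. Library 3129 was thus the highest of its group, and the 6-week libraries were below all 2-week libraries and above all controls. Cells in division and the level per dividing cell cannot be told apart in bulk tissue, here or for any cell type below.

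Cenpf, a kinetochore protein that appears before division, was at 17.1, 13.7 and 15.9 CPM at 2 weeks and at 7.83 and 6.04 CPM at 6 weeks, a fall of 1.16 (log2, SE 0.24, adjusted p = 0.0489). Aspm, which organises the poles of the spindle, was at 11.8, 9.23 and 10.04 CPM and then at 4.96 and 3.88 CPM, and fell by 1.23 (SE 0.25, adjusted p = 0.0465). Ect2, the exchange factor that starts cytokinesis, was at 19.7, 10.1 and 14.9 CPM and then at 6.02 and 6.998 CPM, and fell by 1.19 (SE 0.23, adjusted p = 0.0331). Each of these groups was separate, with the widest spread in Ect2 at 2 weeks, and the control means at 6 weeks were 4.11, 3.50 and 5.28 CPM. Gtse1, a microtubule-binding protein of the G2 and S phases that restrains p53, fell by 1.36 (SE 0.28, adjusted p = 0.0452), from 14.6, 12.6 and 15.3 CPM to 6.09 and 4.95 CPM. Cenpf, Aspm and Gtse1 were not called when any 1 of the 5 libraries was left out, and Ect2 was called only without library 3130. The 47 mitotic genes at an unadjusted p under 0.05 became 31 without library 3129 and 29 without 3140, all of them lower. The list of DNA replication and repair held no call among 47 genes. It had 16 members lower and 0 higher at an unadjusted p under 0.05 and a median of -0.36. Without library 3129 the 16 became 5 and the median -0.18, and without 3140 the 16 became 6. Brca1, the repair gene with the smallest p, was at 9.86, 8.34 and 7.11 CPM and then at 5.34 and 5.05 CPM (adjusted p = 0.108).

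The promoters of Cenpf, Ect2 and Aspm are shown because they carry the elements by which genes of division are known to be switched together, the CHR core (TTTGAA) and the CCAAT box (CCAAT). The stretches run from 150 bases before to 20 bases after the start of transcription in RefSeq on GRCm38.p6, 5′ to 3′ on the strand of the gene, with the elements in capitals on whichever strand they lie. They are, in turn, chr1:189688067-189688236 (minus strand), chr3:27153859-27154028 (minus strand) and chr1:139454623-139454792 (plus strand). Ect2 has 2 promoter windows in RefSeq. The window with more of the 2 kinds of element was taken, or the first at a tie.
Cenpf: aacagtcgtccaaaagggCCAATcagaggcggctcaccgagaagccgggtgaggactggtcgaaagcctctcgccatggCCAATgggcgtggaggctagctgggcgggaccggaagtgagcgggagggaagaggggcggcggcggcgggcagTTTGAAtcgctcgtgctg
Ect2: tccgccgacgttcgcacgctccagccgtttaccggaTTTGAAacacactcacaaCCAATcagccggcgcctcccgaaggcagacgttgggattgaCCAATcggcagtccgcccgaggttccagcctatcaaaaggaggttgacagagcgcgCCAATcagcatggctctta
Aspm: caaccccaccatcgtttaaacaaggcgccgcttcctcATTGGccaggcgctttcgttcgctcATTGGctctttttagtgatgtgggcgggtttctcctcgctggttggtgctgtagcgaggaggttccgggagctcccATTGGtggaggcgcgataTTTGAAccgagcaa
Among the 51 genes of the mitosis list with a promoter window of 250 bases before to 50 after the start, 36 held the CHR core on either strand (70.6%), against 20.2% of all 27025 genes with a window. The CCAAT box was in 35 of them (68.6%), against 41.1% of all genes. These are counts of letters in a window and say nothing of binding.

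Genes that type I interferon induces were lower as well. All 41 had a negative log2 fold change, and 28 had an unadjusted p under 0.05, against 6.76% of all genes downward. The median was -0.68, against -0.19 in the controls and -0.73 in the 75 Gy lungs. The list summed to 2710, 2710 and 2580 CPM at 2 weeks and to 1870 and 1710 CPM at 6 weeks, with 1530 to 1740 CPM in the 6 controls. Only Rsad2 was called. Rsad2, which encodes the antiviral enzyme viperin, stood at 46.8, 41.1 and 36.3 CPM and then at 13.3 and 13.6 CPM, a fall of 1.62 (log2, SE 0.29, adjusted p = 0.0232). The 6-week values sat near the control libraries, which had means of 11.8 CPM at 2 weeks and 8.76 CPM at 6 weeks, and the gene was not called when any of the 5 libraries was left out. Without library 3140 the 28 interferon genes at an unadjusted p under 0.05 became 15. Of the 32 genes that interferon-gamma induces, 3 were lower and 1 higher at an unadjusted p under 0.05, with a median of -0.19 and 0 calls. The median was 0.00 without library 3129, 0.03 without 3140 and -0.42 without 3138. Ido1, the tryptophan-degrading enzyme with the smallest p among them, was at 2.31, 1.52 and 2.08 CPM and then at 0.577 and 0.785 CPM (adjusted p = 0.206).

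The promoter of Rsad2 (chr12:26456433-26456602, minus strand) is given for its interferon-stimulated response element, in capitals as it reads on the strand of the gene.
Rsad2: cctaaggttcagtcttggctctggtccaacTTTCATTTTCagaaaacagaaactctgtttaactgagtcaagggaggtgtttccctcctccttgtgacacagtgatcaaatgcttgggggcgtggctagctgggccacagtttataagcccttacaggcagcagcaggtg
The core of this element, GAAA, any 2 bases and GAAA again on either strand, was in the windows of 18 of the 29 listed interferon genes with a window (62.1%), against 3.99% of all genes.

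**Figure D2:**
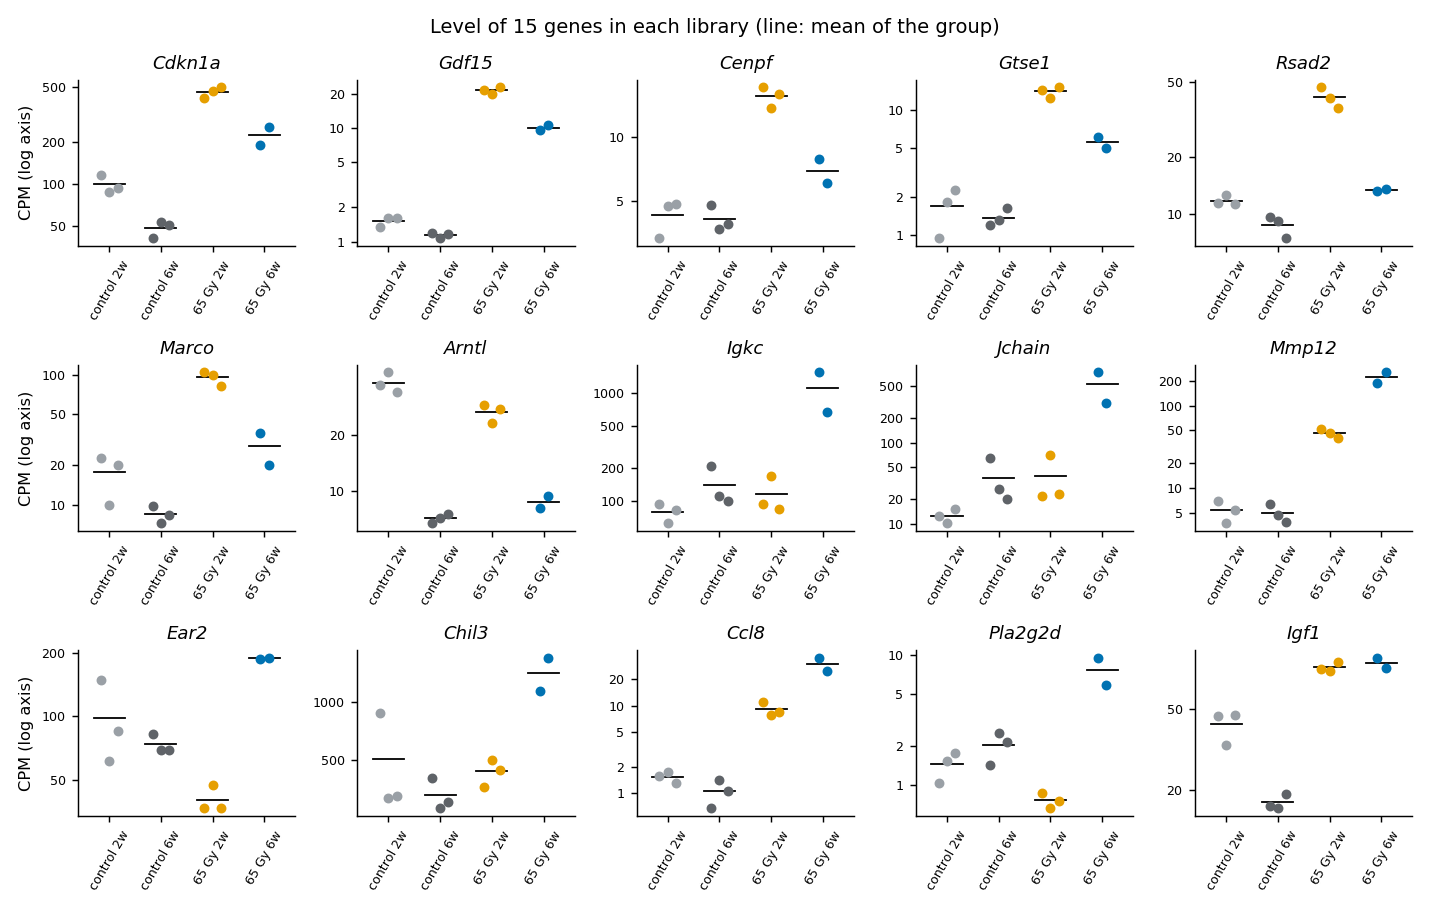
Level of 15 genes in each library (vertical, CPM on a log axis), for controls and 65 Gy lungs at 2 and 6 weeks; points are libraries and lines are group means. In Cdkn1a, Gdf15, Cenpf, Gtse1, Rsad2 and Marco both 6-week libraries of 65 Gy lie below the 3 of 2 weeks, in Igkc to Pla2g2d both lie above them, and in Igf1 they overlap.

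The other genes that fell were of mixed kinds. Marco, the scavenger receptor by which macrophages bind particles and bacteria, fell by 1.76 (log2, SE 0.32, adjusted p = 0.0273), from 104, 99.85 and 81.7 CPM to 35.8 and 20.3 CPM. Its 6-week libraries were separate from those of 2 weeks and above all 3 controls of that time, which had a mean of 8.41 CPM. The 2-week controls had a mean of 17.7 CPM. Between the controls the log2 fold change of Marco was -1.07 (SE 0.28, adjusted p = 0.075 in edgeR's quasi-likelihood test). The difference between the time changes was -0.69 (SE 0.42, unadjusted p = 0.119 in the same test). Cxcl5, a chemokine that epithelium releases to draw neutrophils, fell by 2.35 (SE 0.48, adjusted p = 0.0458), from 6.52, 3.09 and 3.88 CPM to 1.09 and 0.666 CPM. In the controls, with means of 0.464 and 0.126 CPM, the log2 fold change of Cxcl5 was -1.86 (SE 0.54, adjusted p = 0.112), and the difference between the time changes was -0.50 (unadjusted p = 0.516). Ces2e, a carboxylesterase, was at 20.2, 30.1 and 25.8 CPM and then at 6.91 and 9.06 CPM, and fell by 1.67 (SE 0.33, adjusted p = 0.044), while the control means were 3.21 and 4.03 CPM. Marco, Cxcl5 and Ces2e were each not called when any 1 library was left out.

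Apln, the peptide apelin that endothelial cells make, stood at 84.8, 78.1 and 104 CPM and then at 36.8 and 43.1 CPM, a fall of 1.16 (log2, SE 0.17, adjusted p = 0.00774) that was lost only without library 3138. Here the 6-week libraries lay below every control, whose means were 58.7 and 56.3 CPM, and the 2-week libraries above. Ccdc184, a coiled-coil protein, fell by 1.53 (SE 0.19, adjusted p = 0.00243), from 11.2, 11.1 and 12.6 CPM to 3.86 and 4.20 CPM, again with a loss of the call only without 3138. Its 6-week level was that of the controls of the same time, at a mean of 3.87 CPM. Mcidas, which starts the multiciliated cell programme, went from 2.47, 1.97 and 2.23 CPM to 0.379 and 0.324 CPM, a fall of 2.65 (SE 0.42, adjusted p = 0.0133), and both 6-week values were below the control mean of 0.787 CPM. Mcidas was not called without 3138 or 3140. Nod2, the receptor for bacterial peptidoglycan fragments, fell by 1.23 (SE 0.20, adjusted p = 0.0142), from 12.1, 12.96 and 13.4 CPM to 4.95 and 5.99 CPM, and was called only without 3129 or 3140. The remaining fall among genes without a name of their own was that of the noncoding gene model Gm38811, at 0.066 and 0.102 CPM at 6 weeks.

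Set beside the controls of their own time, 15 of the 19 genes that fell had every 2-week 65 Gy library above every 2-week control (15.9% of all genes tested did). At 6 weeks this held for 12 of the 19 (28.2% of all genes). Because the 65 Gy libraries also made the calls, these counts describe levels and test nothing. The 4 exceptions at 2 weeks were Npas2, Arntl, Spon2 and Gm38811.

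Npas2, Arntl and Spon2 also fell between the controls. Arntl (chr7:113178471-113314126), which encodes the clock activator BMAL1, stood at 28.8, 23.1 and 27.3 CPM and then at 8.18 and 9.41 CPM, a fall of 1.58 (log2, SE 0.14, adjusted p = 0.000234). It was called in all 5 fits with a library left out. In the controls it fell by 2.40 (SE 0.13, adjusted p = 1.87e-07), from a mean of 37.8 to one of 7.18 CPM. Npas2, a partner of BMAL1, fell by 1.47 (SE 0.29, adjusted p = 0.0434) in 65 Gy lungs, from 15.5, 8.14 and 12.1 CPM to 4.49 and 4.15 CPM, and by 2.69 (SE 0.27, adjusted p = 0.000154) in controls. Spon2, a matrix protein of the spondin family, fell by 1.75 (SE 0.29, adjusted p = 0.0175), from 39.3, 22.1 and 40.2 CPM to 8.76 and 11.3 CPM, and by 2.70 (SE 0.26, adjusted p = 0.000154) in controls. Npas2 and Spon2 were called only without library 3130. In the list of 19 clock genes, 9 others were higher at an unadjusted p under 0.05 and the median was 0.59, against 0.90 in the controls, where 6 were called higher and 2 lower. The 9 became 5 without library 3129, and the median became 0.36 without 3140. Dbp, the clock output factor, was at 16.1, 39.8 and 22.1 CPM and then at 122 and 104 CPM (adjusted p = 0.0798). The hour at which lungs were taken is not given in the sources used here, and its part in these values was not tested.

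Immunoglobulin genes were the largest group that rose. Of 199 V, D and J segments with enough counts to test, 27 were called and all 27 rose, and 114 were higher and 1 lower at an unadjusted p under 0.05. The median over the tested segments was 2.13, against 0.58 in the controls and 2.90 in the 75 Gy lungs. Of the 27, 14 lie in the kappa locus on chromosome 6, 11 in the heavy chain locus on chromosome 12 and 2 in the lambda locus on chromosome 16. Some segments are close copies of each other, so reads may be shared between them and the value of a single segment is uncertain. The 27 calls became 9 without library 3129, 5 without 3130, 7 without 3131 or 3138 and 32 without 3140. Without 3138 the median became 1.22 and the 114 segments at an unadjusted p under 0.05 became 72. The segments tested passed the filter partly through the groups in which they are high, and their median is a description of those alone.

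The constant regions Igkc, Igha and Iglc1 rose, 3 of 11 tested, and 9 of the 11 were higher at an unadjusted p under 0.05 with a median of 2.86 (controls, 0.80), which was 1.8 without library 3138. Igkc (chr6:70726435-70726754), the constant region of kappa light chains, stood at 93.3, 169 and 83.9 CPM at 2 weeks and at 1564 and 676 CPM at 6 weeks, a rise of 3.28 (log2, SE 0.56, adjusted p = 0.0188). Igha (chr12:113256204-113260236), the constant region of IgA, stood at 86.6, 242 and 96.6 CPM and then at 1143 and 920.2 CPM, a rise of 2.86 (SE 0.59, adjusted p = 0.0468). Jchain, which links IgA and IgM into polymers, stood at 22.1, 70.0 and 23.5 CPM and then at 733 and 309 CPM, a rise of 3.76 (SE 0.67, adjusted p = 0.0232). In all 3 genes library 3130 was the highest at 2 weeks and 3138 the highest at 6 weeks, and the groups stayed far apart. Iglc1 rose by 2.09 (SE 0.34, adjusted p = 0.0153), from 9.96, 5.04 and 8.55 CPM to 39.5 and 27.5 CPM. Igkc and Jchain were called only without library 3130 or 3140, Iglc1 only without 3129 or 3140, and Igha in none of the 5 fits.

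Summed over all constant regions, immunoglobulin took 0.0491%, 0.0626% and 0.0403% of the counts at 2 weeks and 0.64% and 0.205% at 6 weeks. For V, D and J segments the shares were 0.0138%, 0.0257% and 0.0126% and then 0.249% and 0.0863%. The 6 controls lay between 0.0316% and 0.114% for constant regions and between 0.00877% and 0.0316% for segments, with the 6-week control 3135 highest in both. Both 6-week 65 Gy libraries were above every 2-week library and every control.

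**Figure D3:**
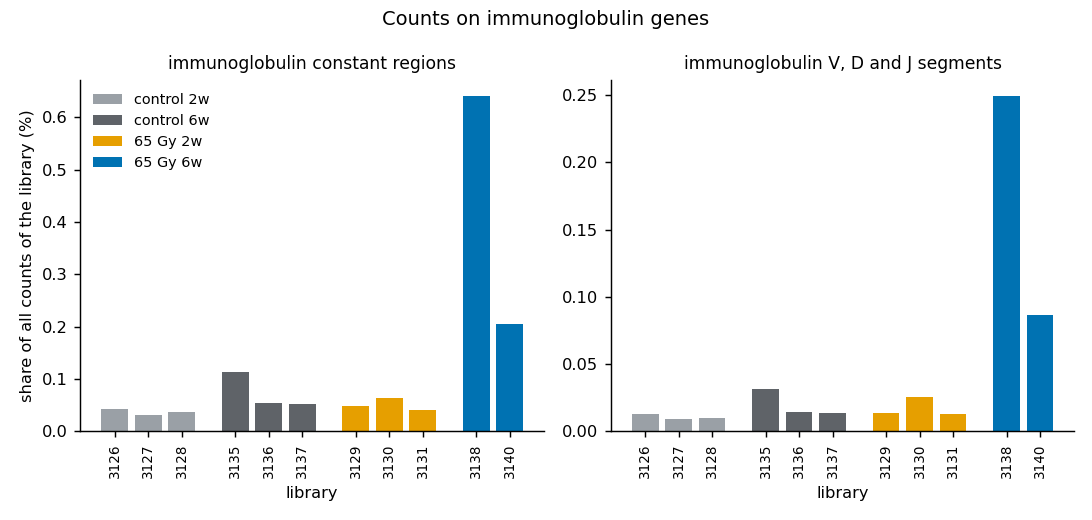
Share of all counts of a library that fell on immunoglobulin constant regions (left) and on V, D and J segments (right), in percent, for each library of the controls and of 65 Gy lungs. Library 3138 reaches 0.64% and 0.249% and library 3140 0.205% and 0.0863%, above the 3 libraries of 2 weeks and all 6 controls.

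Single segments differed widely between the 2 libraries of 6 weeks. Of the 27 called segments, 22 were higher in 3138 than in 3140. Igkv6-13 was at 314.5 CPM in 3138 and at 0.393 CPM in 3140, against 0.258, 0.349 and 0.392 CPM at 2 weeks, and Ighv1-63 was at 65.8 and 0.188 CPM. Without library 3138 their log2 fold changes dropped to 0.23 and 1.58. Igkv8-24 had the opposite order, at 43.6 CPM in 3138 and 146 CPM in 3140, after 1.02, 0.951 and 0.641 CPM at 2 weeks, a rise of 6.76 (log2, SE 0.75, adjusted p = 0.0011). Iglv1 rose by 2.83 (SE 0.33, adjusted p = 0.00189) to 57.5 and 29.5 CPM, and Ighj1 by 2.77 (SE 0.35, adjusted p = 0.00258) to 7.42 and 7.36 CPM. These 3 were called in each of the 5 fits with a library left out. Among constant regions the IgM gene Ighm also differed between the 6-week libraries, at 3231 CPM in 3138, while in 3140 it lay slightly above the highest of the 2-week values of 221, 150 and 160 CPM (adjusted p = 0.0822), whereas Igha was at 1143 and 920.2 CPM.

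Other genes of plasma cells and B cells gave few calls. In the list of 16 plasma cell genes Jchain was called and 4 were higher at an unadjusted p under 0.05, with a median of 0.25. Without library 3138 the 4 became 2, and the median was 0.41 without 3129 and 0.50 without 3140. Mzb1, a chaperone of antibody assembly, was at 5.44, 5.41 and 5.18 CPM and then at 14.1 and 7.43 CPM (adjusted p = 0.199). Of 20 B cell genes 0 were called and 1, Vpreb3, was higher at an unadjusted p under 0.05 (6.52, 6.26 and 5.63 CPM, then 14.6 and 10.9 CPM, adjusted p = 0.0611). The B cell list had a median of 0.14, against 0.71 in the controls, and its sum was 353 to 453 CPM in the 5 libraries and 384 to 1020 CPM in the controls. The list of factors that organise lymphoid tissue held 0 calls among 13 genes, and Lta was at 1.03, 0.745 and 0.837 CPM and then at 1.58 and 1.31 CPM (adjusted p = 0.517). Glycam1, a ligand for L-selectin made by high endothelial venules, had 0 counts in the 3 libraries of 2 weeks and 108 and 50 counts in those of 6 weeks. Against a floor of 3 counts over the 2-week group this is at least 79.5-fold higher (adjusted p = 0.0445), and Glycam1 had 0 counts in all 6 controls too. The call was lost when any 1 of the 5 libraries was left out.

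Macrophage genes moved in both directions. In the list of 17 genes of resident alveolar macrophages 3 rose, Ear2, Ear1 and Chil3, and Marco fell. With any 1 library left out, 1 member was called higher and 0 lower. At an unadjusted p under 0.05 8 were higher and 2 lower, and the median was 0.58, against -0.21 in the controls. Ear2 (chr14:44102654-44103531), a ribonuclease of the eosinophil-associated family that alveolar macrophages also express, stood at 36.6, 47.3 and 36.7 CPM at 2 weeks and at 187 and 189.8 CPM at 6 weeks. The 6-week libraries were close to each other, and the 2-week libraries lay below all 6 controls, which ranged from 61.5 to 149 CPM. The rise was 2.23 (log2, SE 0.28, adjusted p = 0.00249) and was called whichever library was left out. Ear1 rose by 2.095 (SE 0.42, adjusted p = 0.0452), from 2.65, 7.56 and 6.04 CPM to 29.0 and 17.3 CPM, and Ear10 by 2.32 (SE 0.33, adjusted p = 0.00747), from 0.42, 0.523 and 0.481 CPM to 2.41 and 2.35 CPM. The annotated pseudogene Ear-ps9 rose by 2.41 (SE 0.39, adjusted p = 0.0154). At 2 and 6 weeks the control means were 26.9 and 20.2 CPM for Ear1 and 2.11 and 1.62 CPM for Ear-ps9. In Ear1 and Ear-ps9 the 6-week libraries of 65 Gy were not both above all 6 controls, as they were in Ear2. Genes of this family on chromosome 14 are close copies, and how reads shared between them were assigned is not given in the sources used here.

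Chil3, the chitinase-like protein Ym1 of alveolar and alternatively activated macrophages, rose by 1.70 (log2, SE 0.34, adjusted p = 0.0452), from 363, 503 and 447 CPM to 1141 and 1704 CPM. Chil3 and Ear1 were separate between the groups, but neither was called when any 1 library was left out. Mmp12 (chr9:7344397-7360461), the elastase of macrophages, rose by 2.26 (SE 0.34, adjusted p = 0.00885), from 51.9, 47.1 and 40.3 CPM to 192 and 254.5 CPM, while the controls had means of 5.33 and 4.96 CPM. It was not called without library 3131 or 3140. Mmp12 was the only call among the 24 genes of lipid-handling and lysosomal macrophages (6 higher and 2 lower at an unadjusted p under 0.05, median 0.17) and among the 21 metalloproteinases and their inhibitors (median -0.07). Spp1, which encodes osteopontin, was at 553, 682 and 725 CPM and then at 1270.0 and 1608 CPM (adjusted p = 0.109). The 19 genes of monocytes and interstitial macrophages held 0 calls with a median of -0.04, and Itgam, the integrin CD11b, was at 96.7, 112 and 96.5 CPM and then at 44.1 and 47.7 CPM (adjusted p = 0.21).

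Among 37 chemokines and their receptors, Ccl8 and Ccl11 rose and Cxcl5 fell, with 5 higher and 6 lower at an unadjusted p under 0.05 and a median of 0.01. The 6 became 3 without library 3129 and the 5 became 3 without 3138. Ccl8, which draws monocytes and type 2 T cells, stood at 11.1, 7.77 and 8.41 CPM and then at 35.7 and 24.9 CPM, a rise of 1.74 (log2, SE 0.31, adjusted p = 0.0232), and the controls had means of 1.54 and 1.05 CPM. Ccl11, which encodes eotaxin, the attractant of eosinophils, rose by 1.22 (SE 0.24, adjusted p = 0.0372), from 4.33, 4.98 and 3.76 CPM to 9.75 and 10.6 CPM. Both were separate between the groups. Ccl8 was called only without library 3140, and Ccl11 was called in none of the 5 fits. In the list of type 2 and alternatively activated macrophage genes Chil3 was the only call among 20 tested, with 5 higher and 0 lower at an unadjusted p under 0.05 and a median of 0.45 (controls, -0.50). Chil4, a close relative of Chil3, was at 3.96, 5.20 and 4.63 CPM and then at 15.02 and 19.2 CPM.

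Pla2g2d (chr4:138775735-138782052) had the smallest p among the genes that rose. It encodes a secreted phospholipase of dendritic cells and macrophages in lymphoid tissue that releases fatty acids from membranes. It stood at 0.872, 0.666 and 0.766 CPM at 2 weeks and at 9.498 and 5.82 CPM at 6 weeks, and the controls had means of 1.45 and 2.03 CPM. At 2 weeks all 3 libraries were below, and at 6 weeks both above, the 6 controls. The rise was 3.32 (log2, SE 0.31, adjusted p = 0.000234) and was called in all 5 fits with a library left out. It was the only call among 28 genes of eicosanoid enzymes and receptors, which had a median of 0.07. Cd207, which encodes langerin of dendritic cells, showed the same order, at 0.484, 0.412 and 0.374 CPM, then at 2.00 and 2.05 CPM, with control means of 1.26 and 1.06 CPM. It rose by 2.25 (SE 0.29, adjusted p = 0.00258) and was called in all 5 fits. Of the 56 genes that rose, 49 were at 6 weeks above all 6 controls (15.8% of all genes tested were). At 2 weeks 10 of the 56 were below all 3 controls of that time (13.5% of all genes) and 10 were above them (15.9%). Among the 10 below were Pla2g2d, Cd207, Ear2, Ear1, Ear10 and Ear-ps9, and among the 10 above Mmp12, Ccl8, Jchain and Igha. The 65 Gy libraries also made the calls, so these counts are a description.

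Further genes rose outside these groups. Fgg, the gamma chain of fibrinogen, stood at 3.39, 4.71 and 6.64 CPM and then at 19.5 and 31.3 CPM, a rise of 2.37 (log2, SE 0.49, adjusted p = 0.0461), and the control means were 1.93 and 0.54 CPM. Pianp, a membrane ligand of the paired receptor PILR-alpha, rose by 2.21 (SE 0.46, adjusted p = 0.0461), from 2.95, 3.20 and 2.58 CPM to 12.4 and 14.5 CPM. Neither was called when any 1 library was left out. Thbs4, a matricellular thrombospondin, rose by 2.40 (SE 0.43, adjusted p = 0.0227), from 0.371, 0.206 and 0.445 CPM to 2.16 and 1.45 CPM, and Dkk2, a secreted modulator of Wnt signalling, by 1.45 (SE 0.27, adjusted p = 0.0273), from 1.91, 1.63 and 1.43 CPM to 4.29 and 4.76 CPM. Cpxm2, an inactive carboxypeptidase, rose by 1.54 (SE 0.31, adjusted p = 0.0445) while its control means were 2.73 and 1.40 CPM. Mucl1, annotated as a transcribed pseudogene, had the largest rise with counts in all 5 libraries outside the immunoglobulins, at 4.86 (SE 0.76, adjusted p = 0.0133), from 0.339, 0.285 and 0.285 CPM to 4.82 and 12.9 CPM. Agrp, Aoc1, Tex11, Kif1a, Ankrd34b, Epop and AI854703 rose by 1.02 to 1.68, and the gene model Gm6522 had 0 counts at 2 weeks and 56 and 67 counts at 6 weeks, at least 62.4-fold higher against a floor of 3 counts over the group. Aoc1 and Tex11 were also called higher in the controls. Epop rose there by 0.92 (log2, SE 0.18, adjusted p = 0.0225 in edgeR's quasi-likelihood test), under the limit of 1. For Epop the difference between the time changes was 0.09 (unadjusted p = 0.741 in the same test).

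The lists of extracellular matrix genes held Mmp12 as their only call, while Thbs4 and Spon2, given above, are in none of these lists. Of 43 collagen chains 0 were called, 7 were higher and 3 lower at an unadjusted p under 0.05 (1 lower without library 3129), and the median was -0.05 (controls, -0.26). Col7a1, the anchoring fibril collagen with the smallest p, was at 18.6, 16.8 and 16.95 CPM and then at 29.7 and 28.7 CPM (log2 fold change 0.74, SE 0.17, adjusted p = 0.069). Fbn1, the microfibril protein fibrillin-1, was at 367, 316 and 344 CPM and then at 225 and 217 CPM (-0.63, SE 0.15, adjusted p = 0.0798), with nearly the same change in the controls, at -0.66. The lists of elastic fibre genes (20), matricellular proteins (20), activated fibroblast and smooth muscle genes (22) and TGF-beta and PDGF signalling (23) had 0 calls and medians between -0.13 and 0.03. Ccn2, a target of TGF-beta, was at 186, 156 and 155 CPM and then at 219 and 363 CPM (adjusted p = 0.086), and Pdgfc at 5.73, 5.07 and 5.59 CPM and then at 7.72 and 8.99 CPM (adjusted p = 0.106).

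The lists of lung epithelial and endothelial genes held few calls, which does not show that these cells were unchanged. Alveolar type 2 genes (18, median -0.02), alveolar type 1 genes (16, -0.02), airway secretory genes (15, 0.31) and general endothelial genes (24, -0.13) held 0 calls. Of the 24 endothelial genes 12 had both 6-week libraries below all 3 of 2 weeks (19.1% of all genes did) and 2 had both above (19.5%). The airway median turned to -0.28 without library 3138 and was 0.19 without 3130 and 0.59 without 3140. The members with the smallest p were S100g (adjusted p = 0.263), Spock2 (0.321), Cbr2 (0.511) and Robo4 (0.371). Ciliated cell genes had 10 higher and 2 lower of 31 at an unadjusted p under 0.05 and a median of 0.36, nearly that of the controls at 0.34, and Mcidas was their only call. The 10 became 6 without library 3140. The capillary cells known as aerocytes (12 genes, median -0.10) had Apln as their call, and endothelial activation genes (10, 0.13) had Glycam1. Transitional epithelium (14, 0.18) held only Cdkn1a, and the senescence-associated list (15, -0.13, and 0.06 without library 3138) held Cdkn1a and Gdf15, both already counted among the p53 targets. The 11 genes of mesothelium, the lining of the lung surface, had 0 calls, but 7 were lower at an unadjusted p under 0.05 and the median was -1.13. The 7 became 4 without library 3140, and DESeq2 called 4 members lower, the exact test 3 and the fit of only the libraries compared 5. Upk3b was at 19.4, 16.4 and 12.3 CPM and then at 2.49 and 1.95 CPM (log2 fold change -2.85, SE 0.68, adjusted p = 0.0829), and Wt1 at 1.81, 1.32 and 0.801 CPM and then at 0.264 and 0.119 CPM (adjusted p = 0.0753). The controls had a mesothelial median of -0.85 as well. How much lung surface went into a sample is not given in the sources used here, and its part was not tested.

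The lists of other immune cells held no calls, while Cd207, given above, is not in the dendritic cell list. MHC class II genes (11, median 0.40, all 11 positive), dendritic cell genes (15, 0.04), complement (21, 0.03), T and NK cell genes (28, -0.00), regulatory T cell genes (15, -0.03) and mast cell and basophil genes (15 tested, 0.21) held none, although without library 3129 1 dendritic cell gene was called higher. Neutrophil genes had 4 higher and 1 lower of 22 at an unadjusted p under 0.05 and a median of 0.48. Without library 3140 these became 1 higher and a median of -0.05, without 3129 2 higher and 0.29, and without 3138 the median was 0.32 and 1 gene was called higher. Cd177, a surface protein of neutrophils, was at 11.8, 13.2 and 10.2 CPM and then at 58.0 and 34.2 CPM (log2 fold change 1.97, SE 0.44, adjusted p = 0.0653). Acute-phase proteins and inflammatory cytokines had 8 of 26 lower and 0 higher at an unadjusted p under 0.05, with a median of -0.22 (controls, -0.26). The 8 became 4 without library 3129, 5 without 3138 and 3 without 3140, where the median was -0.51. Of the other tissues that a sample could carry along, cardiac muscle (18, median 0.43), skeletal muscle (13 tested, 0.12), fat (19, -0.20), red cells (19, -0.24) and thymus (9 tested, 0.15) had 0 calls, and the sign of the fat median rested on library 3129, without which it was 1.1 with 9 members higher at an unadjusted p under 0.05. The medians became 0.19 for cardiac muscle without 3130, -0.50 for fat without 3131 or 3140, -0.38 for red cells without 3138, and -0.02 for mast cells without 3140. Albumin, the defining gene of liver, was at most 1.24 CPM. The members with the smallest p in these immune and other lists were H2-Oa (log2 fold change 0.63), Mgl2 (0.83), Cfi (0.57), Prf1 (-0.43), Il10 (1.22), Fcer1a (1.97), Tnni3 (0.60), Eno3 (0.31), Lpl (0.84), Alas2 (-0.82) and Rag1 (-2.12). All of these except Lpl had an adjusted p above the limit, and Il10, Fcer1a and Rag1 were under 1 CPM in every 65 Gy library. Lpl, lipoprotein lipase of fat cells and alveolar macrophages, was at 276, 305.9 and 289 CPM and then at 489.7 and 552 CPM, with an adjusted p of 0.0476 in edgeR's quasi-likelihood test but a change under the limit of 1.

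Saa3, Cxcl10, Acod1, Ska1, Adipoq, Car3 and Plin1, for which RT-qPCR assays were also run, held 0 calls between the times in 65 Gy lungs. Saa3, an acute-phase protein, was at 94.4, 52.4 and 49.7 CPM and then at 18.8 and 14.9 CPM (log2 fold change -1.96, SE 0.52, adjusted p = 0.117), against control means under 1 CPM. Acod1, which makes itaconate in activated macrophages, was at 14.2, 9.31 and 6.87 CPM and then at 1.91 and 0.70 CPM (-2.95, SE 0.96, adjusted p = 0.198). Cxcl10, an interferon-induced chemokine, was at 39.05, 17.1 and 16.7 CPM and then at 11.9 and 8.94 CPM (adjusted p = 0.332). These 3 were separate between the groups, with library 3129 the highest in each, and had adjusted p-values above the limit. Ska1, a kinetochore protein, was at 2.21, 1.21 and 1.51 CPM and then at 1.07 and 0.734 CPM (adjusted p = 0.476). The fat genes Adipoq, Car3 and Plin1 overlapped, since library 3129 was the highest and 3130 and 3131 the lowest of the 5, and their adjusted p-values were 0.901, 0.956 and 0.707. Their log2 fold changes of -0.46, -0.25 and -1.08 turned to 2.23, 2.72 and 1.57 without library 3129.

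Immediate early genes, which respond within minutes of a stimulus or of tissue handling, held 0 calls among 18, but 11 were higher and 1 lower at an unadjusted p under 0.05 and the median was 0.88 (controls, 0.19). The list summed to 2360, 1480 and 1290 CPM at 2 weeks and to 2270 and 4430 CPM at 6 weeks, so library 3140 was highest and 3138 lay below 3129. Without library 3140 the 11 became 1 and the median 0.19, without 3131 the 11 became 6, and without 3138 the median became 1.33. Fos was at 139, 43.2 and 35.8 CPM and then at 213 and 439 CPM (adjusted p = 0.138). Heat shock chaperones had 0 calls among 19 and 10 lower at an unadjusted p under 0.05, with a median of -0.37. The 10 became 5 without library 3131, 6 without 3138 and 3 without 3140. In the controls the same list had a median of -0.92 and 9 members that were called lower. For the difference between the time changes 13 of the 19 had an unadjusted p under 0.05, against 8.65% of all genes, and 0 were called. The part of handling in either list was not tested. Genes of the NRF2 antioxidant response had 9 higher and 1 lower of 25 and a median of 0.25, and those of cholesterol and fatty acid synthesis 0 higher and 4 lower of 30 and a median of -0.12, with 0 calls in both. The 9 became 4 without library 3138, and the 4 became 2 without 3129 and 1 without 3140. The 17 genes of xenobiotic and retinoid metabolism held 0 calls, with a median of 0.18. Ier2 (log2 fold change 1.5), Serpinh1 (-0.52), Gsta1 (1.29), Acaca (-0.51) and Aldh1a2 (-0.84) had the smallest p in these 5 lists, with adjusted p above the limit.

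**Figure D4:**
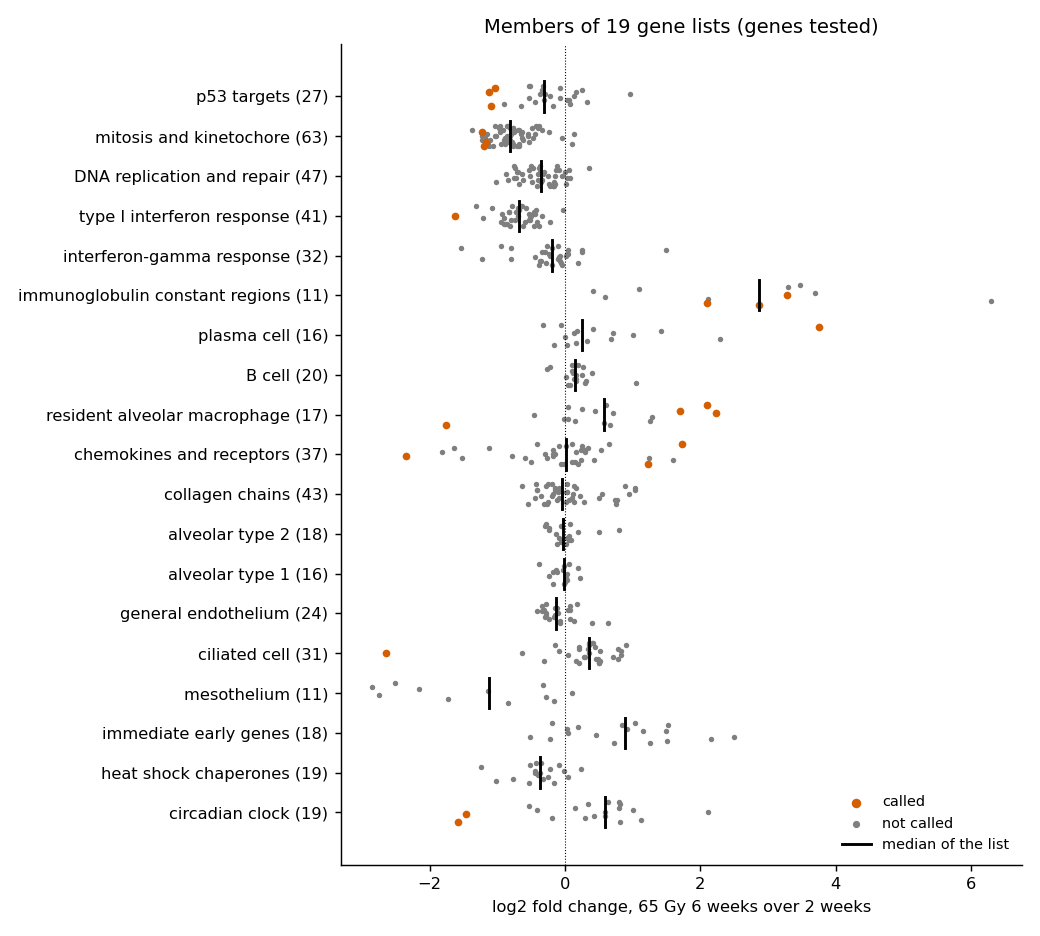
Log2 fold change at 6 weeks over 2 weeks in 65 Gy lungs (horizontal) for each tested member of 19 lists (rows, number tested in brackets); orange points are called genes and black lines list medians. The medians run from -1.13 for mesothelium, -0.81 for mitosis and -0.68 for type I interferon to 2.86 for immunoglobulin constant regions.

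In the lungs without irradiation, 127 genes (0.576%) passed the same limits between the times, 53 of them higher (0.24%) and 74 lower (0.336%), and an unadjusted p under 0.05 was reached upward by 7.28% and downward by 8.19% of all genes. Of the 75 genes called in 65 Gy lungs, 6 were also called there in the same direction, Aoc1 and Tex11 upward and Arntl, Npas2, Spon2 and Cdkn1a downward. Epop (log2 fold change 0.92, adjusted p = 0.0225) and Tnfrsf10b (-0.79, adjusted p = 0.0399 in edgeR's quasi-likelihood test) missed a call in the controls by the fold limit alone. In 72 of the 75 the absolute change was larger in the 65 Gy lungs. The 75 were chosen for a large change there, so this count was largely set in advance. The control change had the same sign in 38 of the 56 genes that rose and 16 of the 19 that fell, and the share over all genes was not counted. The difference between the time changes was called for 3 genes (0.0136%), Ear2, Pla2g2d and Igf1. Of the 75 genes, 65 had an unadjusted p under 0.05 in this test, against 8.65% of all genes (4.28% upward and 4.37% downward). As the same 65 Gy libraries enter both tests, the shares are not independent.

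Igf1 (chr10:87858265-87937047), a growth factor that alveolar macrophages and fibroblasts secrete, was not called within the 65 Gy lungs. It stood at 78.2, 76.7 and 84.2 CPM at 2 weeks and at 88.8 and 78.7 CPM at 6 weeks, and these groups overlapped (log2 fold change 0.07, SE 0.14). In the controls it fell by 1.27 (SE 0.13, adjusted p = 0.000154), from 46.3, 33.2 and 46.7 CPM to 16.8, 16.3 and 19.2 CPM. The time change in 65 Gy lungs was thus 1.34 higher than in controls (log2, SE 0.18, adjusted p = 0.0389). For Ear2 the difference was 2.65 (SE 0.37, adjusted p = 0.0389), since the controls stood at 149, 61.5 and 85.2 CPM and then at 82.8, 69.2 and 69.1 CPM. For Pla2g2d it was 2.83 (SE 0.41, adjusted p = 0.0418), with controls at 1.03, 1.54 and 1.77 CPM and then at 1.44, 2.51 and 2.13 CPM. All 3 differences were lost as calls when library 3129, 3130, 3131, 3135, 3136 or 3138 was left out. Mitotic genes had 32 of 63 members at an unadjusted p under 0.05 in this test and 0 calls.

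**Figure D5:**
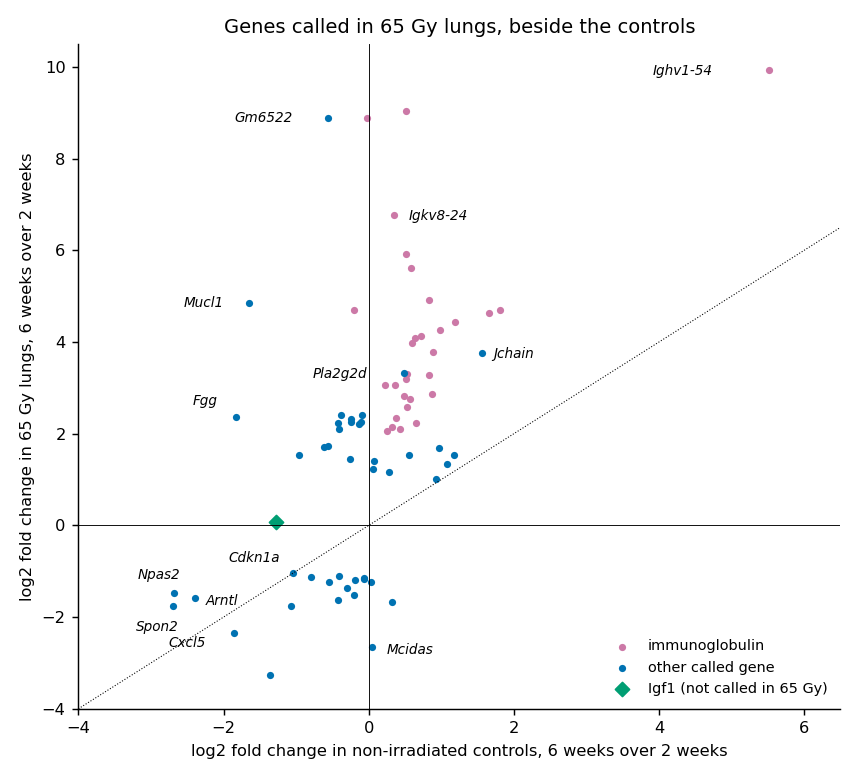
Log2 fold change at 6 weeks over 2 weeks in 65 Gy lungs (vertical) against that in the controls (horizontal) for the genes called in 65 Gy lungs, without Glycam1, which had 0 counts in all controls, and for Igf1; the dotted line marks equal changes. Cdkn1a lies on the line, Arntl, Npas2 and Spon2 lie nearer 0 than in the controls, and Ear2 and Pla2g2d lie far above the line.

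In the 75 Gy lungs 696 genes (3.16%) were called between the times, 512 higher (2.32%) and 184 lower (0.834%). All 56 genes that rose in 65 Gy lungs had a positive and all 19 that fell a negative change at 75 Gy, and 60 of the 75 were called there too. The 2 contrasts share no library, and the share of all genes with the same sign in both was not counted. The difference between the doses was called for 0 genes in edgeR's quasi-likelihood test, with 821 genes (3.72%) at an unadjusted p under 0.05 and 8 genes called by DESeq2. Marco fell by 3.42 (log2, SE 0.30) at 75 Gy against 1.76 at 65 Gy, a difference of 1.66 (SE 0.41, adjusted p = 0.818). Ear2 rose by 1.24 (SE 0.25) at 75 Gy against 2.23 at 65 Gy, a difference of 0.99 (SE 0.37, adjusted p = 1), and Mmp12 by 1.30 against 2.26. Igkv8-24 had a log2 fold change of 1.31 at 75 Gy against 6.76 at 65 Gy, a difference of 5.45 (SE 0.91, adjusted p = 0.273). Igkv8-24 was called for this difference by DESeq2 and, in edgeR, without the 75 Gy library 3143 of 6 weeks. An adjusted p above the limit does not show that the doses act alike.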

How the data were processed

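The authors sequenced stranded poly(A) libraries, trimmed the reads with Trimmomatic, aligned them with HISAT2 to GRCm38.p6 and assembled transcripts with StringTie, and they deposited whole-number counts per gene of the NCBI annotation. How the StringTie output became counts is not given in the sources used here. Reads shared between close copies of a gene may therefore have been split in ways that change the counts of immunoglobulin segments and Ear genes.

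Groups were taken from the sample titles. The third 65 Gy library of 6 weeks was not analysed here. Of 45777 genes, 22052 passed edgeR's filterByExpr (minimum count 10, total 15). All 17 libraries entered 1 edgeR quasi-likelihood fit with TMM factors (edgeR 4.0.16, limma 3.58.1, R 4.3.3, 11 residual degrees of freedom), with Benjamini-Hochberg adjustment over all genes tested. A call needed an adjusted p of at most 0.05 and a log2 fold change of at least 1. All tests are two-sided. The difference between time changes was tested as an interaction contrast. With 2 libraries against 3 a permutation over 10 arrangements cannot go below p = 0.1, and none was used. The scripts were tested on simulated data. Alternatives were other filters and scaling factors, DESeq2 1.42.0, edgeR's exact test, a fit of only the libraries compared, other limits, and each library left out in turn. Counting error is small at over 55544421 counts per 65 Gy library, except for genes near 1 CPM.

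Named genes were the 10 called genes with the largest rise and the 10 with the largest fall at a mean of at least 1 log2 CPM, without segments and gene models, the 3 called members of each list with the smallest p (or the member with the smallest p where none was called), the 7 RT-qPCR genes, and the 5 genes with the smallest p among those called in each interaction. Members and lists were chosen with earlier results of these data known. Btg2, Dbp, Ighm, Mzb1, Chil4, Upk3b, Fos, Ucp1, the single V, D and J segments and the called genes outside the rule were named after their values were seen. Coordinates and promoters are from RefSeq on GRCm38.p6, and coordinates matched 21999 of the genes tested.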

Additional observations from a re-analysis of the deposited data

Results flagged for a closer look

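For 3 genes the change from 2 to 6 weeks differed between 65 Gy lungs and controls by the test of the difference itself (edgeR's quasi-likelihood test). The difference on the log2 scale, 65 Gy minus controls, was 2.65 for Ear2 (SE 0.37, adjusted p = 0.0389), 2.83 for Pla2g2d (SE 0.41, adjusted p = 0.0418) and 1.34 for Igf1 (SE 0.18, adjusted p = 0.0389). In Ear2 and Pla2g2d both 6-week 65 Gy libraries were above every other library of 65 Gy and control lungs. In Igf1 the 65 Gy libraries overlapped between the times, while all 3 controls of 6 weeks were below all 3 of 2 weeks.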

How the results depend on the processing

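All 75 called genes kept their direction in every alternative in which they were tested. Of the other genes named by the rule given above, 4 changed sign with 1 library left out. Uncalled genes that were named after their values were seen, such as Ucp1, were not followed one by one in these fits. The log2 fold change of Adipoq ran from -0.97 to 2.23, that of Car3 from -0.78 to 2.72 and that of Plin1 from -1.596 to 1.57, each positive only without library 3129, and that of Igf1 from -0.029 to 0.15, negative only without 3138. Between the times in 65 Gy lungs, 75 genes were called, against 228 with DESeq2, 192 with only the libraries compared, 242 with edgeR's exact test, 678 with an unadjusted p and the fold limit, and 15 to 57 with 1 library left out. The 127 calls between controls became 221 with DESeq2, 32 with only the libraries compared, 238 with the exact test, 359 with the adjusted p alone, 583 with an unadjusted p, and 58 to 133 with 1 library left out. The 3 differences from the controls became 5 with no filter except 1 count, 79 with DESeq2, 660 with an unadjusted p, and 0 to 7 with 1 library left out. The 0 differences from 75 Gy became 8 with DESeq2, 416 with an unadjusted p, and 0 to 1 with 1 library left out. Other filters and scaling factors gave 62 to 82 calls in 65 Gy lungs. The share of calls that were higher was 74.7%, and 68.9% with DESeq2 and 65.4% with the adjusted p alone. The cause of these differences was not tested. In the mitosis list DESeq2 called 14 genes lower, and a fit of only the libraries compared called 4. Where a 6-week library is left out, the lone other is assumed to vary like the other groups. No paired analysis was possible because the labels give every sample its own identifier, and none recurs in another group.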
